A study of Caenorhabditis elegans with 24 samples.

Results

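The cytosolic ribosomal protein genes of Caenorhabditis elegans were examined for the antisense small RNAs that map to them. Members were all genes whose WormBase symbol begins with rpl- (large subunit) or rps- (small subunit), without the mitochondrial mrpl- and mrps- genes, and with 10 or more normalized counts in at least 2 of 24 libraries. Of 78 genes with such symbols, 77 met the rule, 46 of the large and 31 of the small subunit, among 8869 features that met it and 46726 features listed. The gene left out was rpl-25.1 (X:4715178-4715796), which reached 7.86 normalized counts at most. Just inside the rule lay rpl-36.A, rpl-22 and rps-17, with 10 or more in 3, 5 and 7 libraries. In all, 53 members reached 10 in every library.

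Each ribosome is built from a small subunit, which reads the mRNA, and a large subunit, which joins amino acids. Their proteins are encoded by short, highly transcribed genes, and where the place of a protein in the ribosome is named here, it is known from yeast and mammalian ribosomes. In C. elegans, RNA-dependent RNA polymerases copy targeted transcripts into short secondary siRNAs that are antisense to the mRNA. These siRNAs are loaded onto Argonautes that act in the cytoplasm or, as HRDE-1 does in germ cells, in the nucleus. MEG-3 and MEG-4 are disordered proteins that assemble P granules, the RNA-rich granules of the embryonic germ lineage.

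Small RNAs were sequenced from whole young adults grown at 20 °C, in 12 groups of 2 libraries. The groups were double mutants with the genotype meg-3 meg-4 (strain JH3225, here meg-3/4) and triple mutants with the genotype hrde-1; meg-3 meg-4 (strain YY1512). The other groups were animals of restored wild-type genotype, bred from meg-3/4 by outcrossing and taken at each generation from F3 to F7 and then at F10, F15, F20 and F25, and wild type (strain N2), which stands as the control. The mutant alleles are not named in the labels. The 2 libraries of a group are labelled as biological replicates with nothing said of separate cultures, so a p-value here measures the spread between such libraries, and later descendants may derive from earlier ones. RNAs of about 15 to 30 nt were cloned after phosphatase and kinase treatment, which lets 5′-triphosphorylated siRNAs enter the library.

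A value is a normalized count, the number of reads at a gene divided by 1 factor per library. It was read as antisense, since at 26 of 28 microRNA genes with a non-coding feature on the other strand that opposite feature held the higher value, although the sources used here do not give the strand setting. Libraries held 392785 to 3420345 reads, and the shallowest were F10 replicate 1 and F4 replicate 2, in which 1 read was worth 5.47 and 4.99 normalized counts, against 0.51 to 1.86 elsewhere. Those shallow libraries held 507 and 654 reads on the members, with fewer than 3 reads at 22 and 14 members, so a gene with no read there could still hold up to 16.4 and 15.0 normalized counts (3 reads, counting error only). The labels were checked at the mutated genes. The normalized counts at meg-3 were 7.74 and 7.86 in meg-3/4, 4.73 and 14.4 in the triple mutants, 46.5 to 84.8 in the descendants, and 42.8 and 64.2 in wild type. At meg-4 they were 3.93 and 12.2 in meg-3/4, 0.900 and 4.73 in the triple mutants, 71.1 to 194.5 in the descendants, and 55.0 and 74.2 in wild type. At hrde-1 they were 599.9 and 628.5 in the triple mutants and 1115 or more in every other library. The animals were whole, so fewer cells that make these siRNAs and less siRNA per cell cannot be told apart.

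Per kilobase of exon, ribosomal protein genes carried more antisense small RNA than the middle protein-coding gene of the table. The member median was 62.4 normalized counts per kilobase as the mean of 24 libraries (quartiles 39.7 and 89.7), with 65.1 for large and 58.6 for small subunit genes. The median of the 7803 protein-coding genes tested was 38.6 per kilobase, and 66.1% of them lay below the member median. Without division by length the order was the other way, at 34.9 normalized counts for members and 53.6 for protein-coding genes, since the exons of a member spanned a median of 534 bases against 1492. The highest member per kilobase was rpl-41.2 (I:4790292-4790642) at 570.1, followed by rpl-43 at 235.3, rps-29 at 197.1, rpl-24.2 at 178.1, rpl-11.1 at 166.9 and rps-2 at 151.2. The lowest were rpl-36.A at 16.4, rpl-22 at 15.6 and rpl-2 at 13.1. Members lay on all 6 chromosomes, but the only one on X was rpl-11.2, and their positions are given for assembly WBcel235 with Ensembl release 115 because the sources used here do not give the authors' build.

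**Figure D1:**
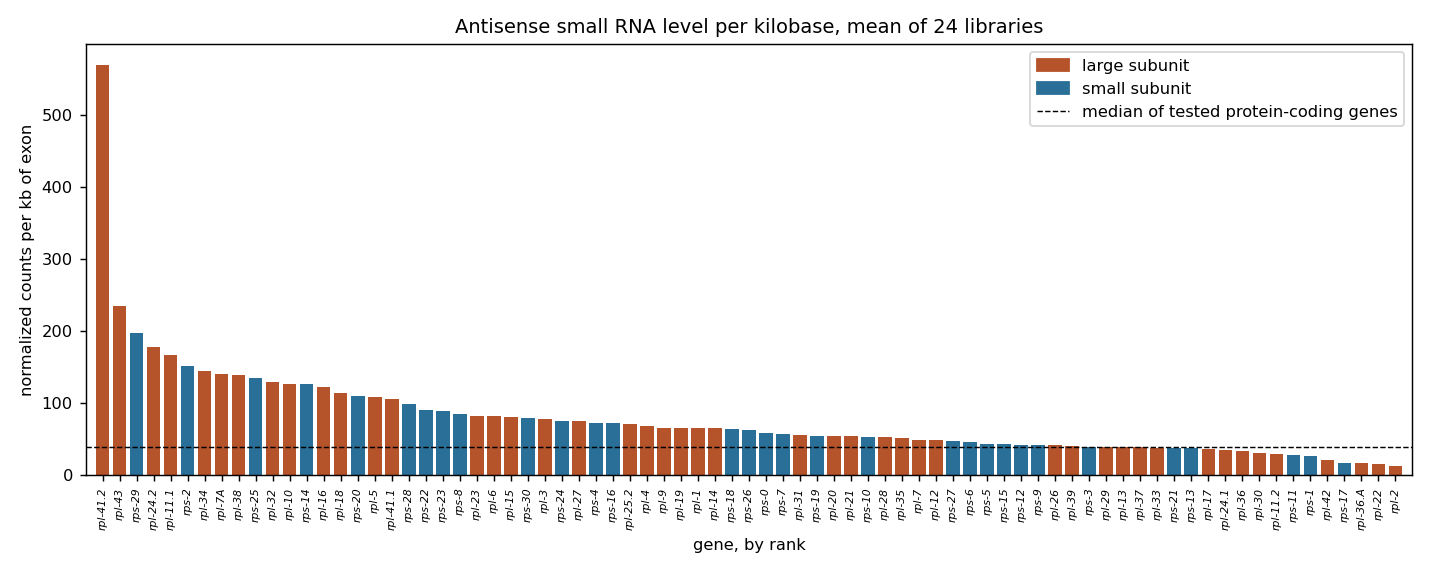
Bars give the mean over 24 libraries of the normalized counts per kilobase of exon for each of the 77 genes, ranked, with large and small subunit genes in separate colours. The dashed line marks the protein-coding median of 38.6, and rpl-41.2 stands far above the others at 570.1.

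The summed level of both subunits was lower in meg-3/4 than in wild type, and by like proportions. Large subunit genes summed to 1916 and 1949 normalized counts in the meg-3/4 libraries, 2212 and 2241 in the triple mutants, 1766 to 2355 in the descendants, and 2548 and 2428 in wild type. Small subunit genes summed to 1084 and 1119 in meg-3/4, 1326 and 1376 in the triple mutants, 1006 to 1359 in the descendants, and 1474 and 1432 in wild type. Both wild-type sums were therefore above every mutant and descendant library.

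Large subunit genes held nearly the same share of the sum in every library. Their share was 63.7% ± 0.243 in meg-3/4 and 62.2% ± 0.390 in the triple mutants, against 63.1% ± 0.330 in wild type (SD, n = 2 each), and 63.7% ± 0.743 over the 18 descendant libraries. The meg-3/4 libraries, at 63.9% and 63.5%, lay just above the wild-type libraries, at 63.4% and 62.9%, and the triple mutants, at 62.5% and 62.0%, just below them. With quantile normalization the order of the first pair turned, at 63.4% in meg-3/4 and 63.6% in wild type. The whole range over 24 libraries was 62.0% to 65.7%, the top being F3 replicate 2. These shares are given as a description and were not tested.

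Over the descendants, the large and small subunit sums moved side by side. They averaged 2283 and 1242 at F3, 2138 and 1199 at F4, 2030 and 1150 at F5, 2084 and 1182 at F6, and 1958 and 1099 at F7. They averaged 1980 and 1128 at F10, 1993 and 1184 at F15, 2038 and 1173 at F20, and 2266 and 1345 at F25, against 2488 and 1453 in wild type. The F25 libraries stood nearest to wild type for the small subunit, and F3 and F25 for the large. Sums are weighted to the genes with high levels. The median log2 change against wild type differed most between the subunits at F10, at −0.25 for large and −0.53 for small subunit genes. F10 replicate 1 was the shallowest library. As a share of all normalized counts in a library, the members made up 0.140% ± 0.0161 in meg-3/4, 0.197% ± 0.00744 in the triple mutants, 0.173% ± 0.0190 in the descendants and 0.233% ± 0.00580 in wild type (SD, n = 2, 2, 18 and 2).

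**Figure D2:**
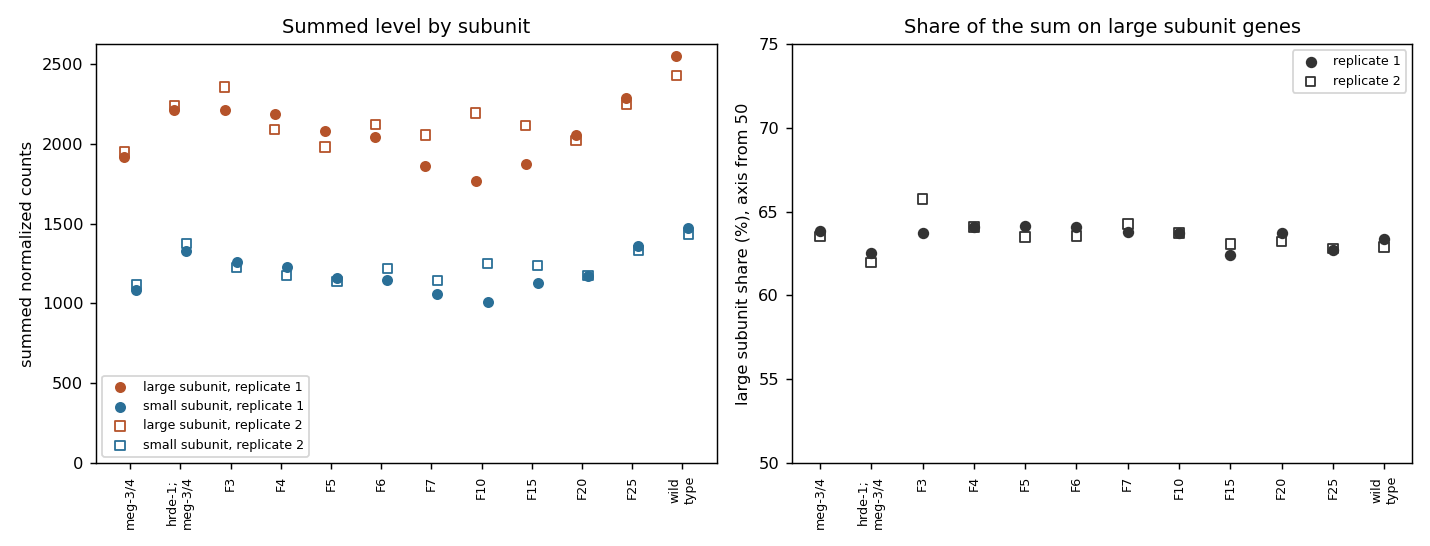
Left, summed normalized counts of the 46 large and the 31 small subunit genes in each library, by group. Right, the large subunit's percentage of the sum on an axis that starts at 50%, where all 24 libraries lie between 62.0% and 65.7%.

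Loss of both granule proteins was set against wild type to find genes whose antisense small RNAs change. In meg-3/4, 15 of 77 ribosomal protein genes were lower and 0 were higher. A call here is a Benjamini-Hochberg adjusted p of at most 0.05 over all 8869 features, from limma on log2(normalized count + 5), a scale that understates the changes of low genes. Among all features 17.6% were called lower and 8.28% higher, so the 19.5% of members called lower is near the background, while no member was called higher by limma (0 at an unadjusted p under 0.05), edgeR or DESeq2. The lower members were 8 of 46 large subunit genes (17.4%) and 7 of 31 small subunit genes (22.6%). The median log2 change was −0.21 over the members, −0.23 for the large and −0.19 for the small subunit, beside −0.01 over all features, and 59 of 77 members were below 0, beside 4537 of 8869 features. Quantile normalization shifted the median of all features to 0.13 and equal library totals to −0.33, and the member median lay 0.14 and 0.21 below it, against 0.20 below it as reported. Under those scalings 9 and 28 members were lower and 1 and 0 higher, and the lower calls made up 49.0% and 90.0% of all calls, against 68.1% as reported. The count of lower members was 7 and 10 when wild-type replicates 1 and 2 were left out in turn, and 9 when meg-3/4 replicate 1 was.

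**Figure D3:**
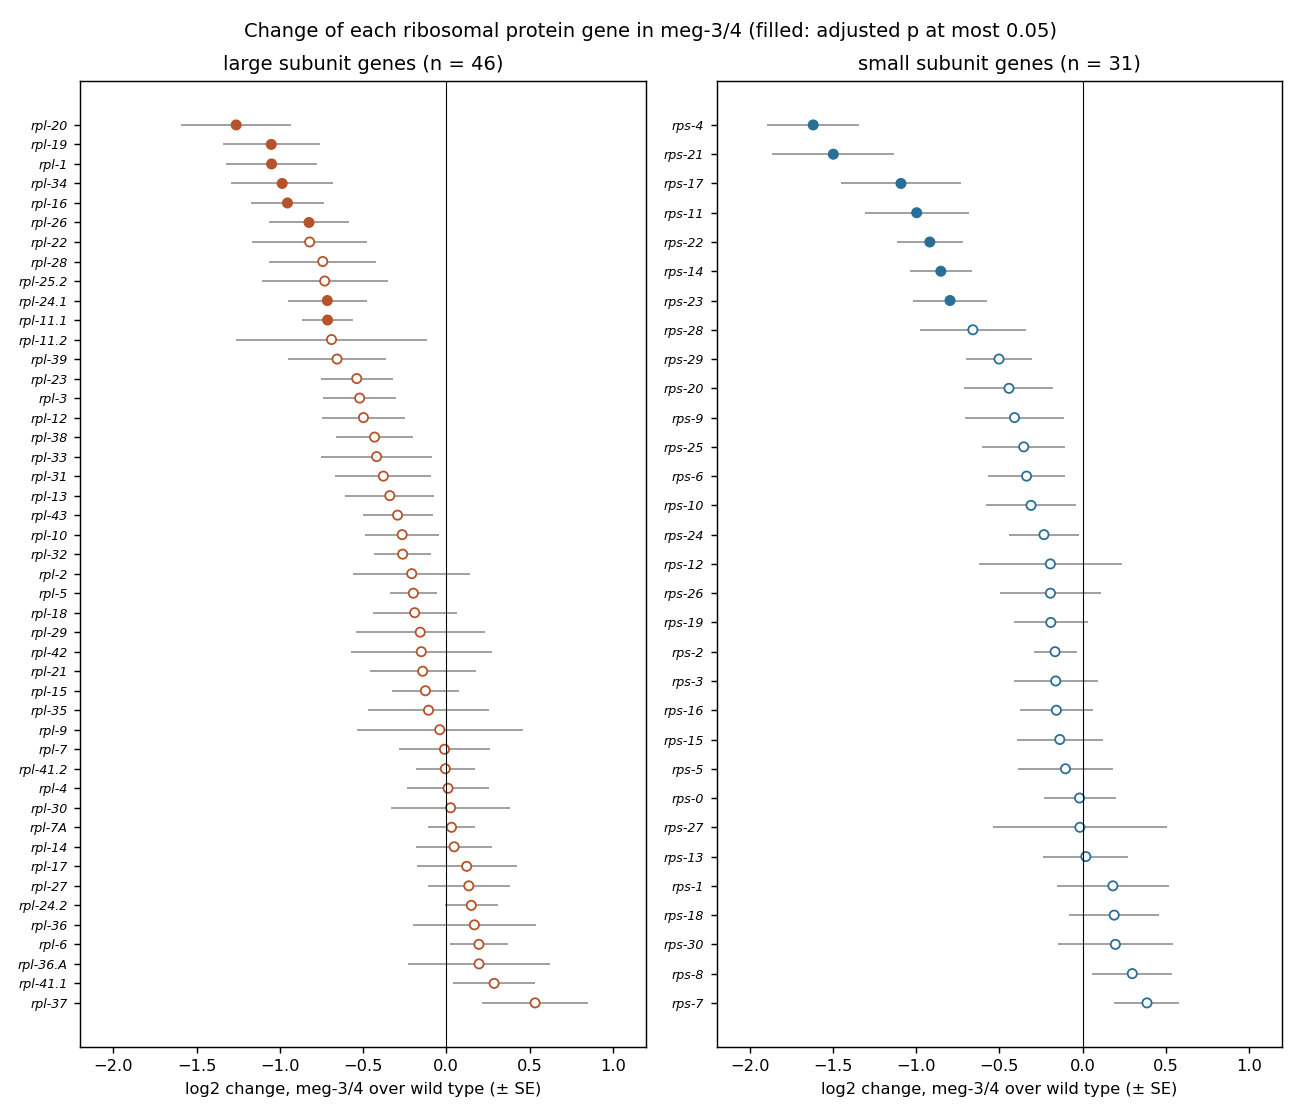
Each point is the log2 change of 1 gene, meg-3/4 over wild type, with its standard error, for large (left) and small (right) subunit genes. Filled points passed an adjusted p of 0.05, and all of them lie left of 0, from −0.71 for rpl-11.1 to −1.62 for rps-4.

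The largest fall was at rps-4 (WBGene00004473, IV:7083696-7084682, minus strand), which encodes a protein of the small subunit body. It had 32.1 and 42.2 normalized counts in meg-3/4, 112.6 and 109.6 in the triple mutants, and 123.3 and 123.8 in wild type. Both meg-3/4 libraries were far below all 4 others, with no overlap. The log2 change of meg-3/4 against wild type was −1.62 (SE 0.276, limma adjusted p = 0.000164), and it remained called under each of the 11 alternatives tried, with an adjusted p of 0.00523 at most. Its exons share 21 bases with Y43B11AR.3 on the same strand, which averaged 30.6 normalized counts, so reads in that stretch cannot be assigned to one of them.

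Another strong fall was at rps-21 (WBGene00004490, III:7189178-7189631, minus strand), a gene with few reads. It had 4.42 and 4.91 normalized counts in meg-3/4, 18.01 and 25.2 in the triple mutants, and 24.3 and 20.4 in wild type, which is a log2 change of −1.50 in meg-3/4 against wild type (SE 0.366, limma adjusted p = 0.00442). The triple mutant and wild-type libraries overlapped, and both stood apart from meg-3/4. Also lower was rps-14 (WBGene00004483, III:7178991-7179588), which encodes a protein of the small subunit platform, at 49.8 and 49.1 in meg-3/4, 91.9 and 78.05 in the triple mutants, and 94.9 and 91.7 in wild type (log2 −0.85 against wild type, limma adjusted p = 0.00189). The 2 genes lie on the same strand of chromosome III but are not adjacent. The tested genes that flank rps-21, yju-2 and F37C12.18, were not called in meg-3/4 against wild type (log2 0.16 and 0.0009).

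Among the other small subunit genes called, rps-22 (WBGene00004491, III:1950535-1951425) had 42.0 and 47.1 normalized counts in meg-3/4 and 85.1 and 92.3 in wild type (log2 −0.92, SE 0.198, limma adjusted p = 0.00155). The gene rps-23, whose protein lies at the decoding centre, had 29.9 and 30.4 in meg-3/4 and 54.4 and 57.8 in wild type (log2 −0.80, limma adjusted p = 0.0114). At rps-17 (WBGene00004486, I:6220093-6220764) the values were near the floor, 6.64 and 1.96 in meg-3/4 and 15.6 and 12.8 in wild type (log2 −1.09, SE 0.362, limma adjusted p = 0.0315). That last call was lost without meg-3/4 replicate 2, without either wild-type library, with no filter on low values, with quantile normalization and with DESeq2, at adjusted p of 0.0735 to 0.269. The remaining small subunit gene called was rps-11, at 7.74 and 13.7 in meg-3/4 and 24.9 and 26.9 in wild type. The rps-23 call was lost with meg-3/4 replicate 1 or wild-type replicate 2 left out, and the rps-11 call with meg-3/4 replicate 1 or either wild-type library left out, as were both with quantile normalization (adjusted p of 0.0594 to 0.216).

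Of the large subunit genes, rpl-20 (WBGene00004432, IV:4749123-4749778, minus strand) fell most, to 21.0 and 27.5 normalized counts in meg-3/4, against 67.7 and 61.9 in wild type (log2 −1.26, SE 0.332, limma adjusted p = 0.00768). The gene rpl-19 (WBGene00004431, I:5484779-5486354) had 37.6 and 34.4 in meg-3/4 and 87.4 and 73.0 in wild type (log2 −1.05, SE 0.290, limma adjusted p = 0.0108). The gene rpl-1 (WBGene00004412, I:2875398-2876308), which encodes the protein of the mobile stalk by the tRNA exit site, had 31.0 and 39.3 in meg-3/4 and 70.6 and 85.2 in wild type (log2 −1.05, SE 0.274, limma adjusted p = 0.00723). In each of these genes the meg-3/4 libraries lay at about the same low level and did not overlap wild type. All 3 calls were lost without 1 of the libraries compared: rpl-20 without meg-3/4 replicate 1 or wild-type replicate 1, rpl-19 without meg-3/4 replicate 2 or wild-type replicate 1, and rpl-1 without meg-3/4 replicate 1 or wild-type replicate 2, at adjusted p of 0.0584 to 0.0931.

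The other large subunit genes called lower were rpl-16, rpl-34, rpl-26, rpl-11.1 and rpl-24.1, with log2 changes of −0.71 to −0.99. At rpl-16 (WBGene00004428, III:3502841-3503604) there were 65.3 and 75.6 normalized counts in meg-3/4 and 158.6 and 125.0 in wild type. At rpl-34 (WBGene00004448, IV:12268995-12269490) there were 59.7 and 46.2 in meg-3/4 and 105.3 and 112.7 in wild type. Omission of 1 library ended these calls in 1 of 4 cases for rpl-16, 2 of 4 for rpl-26 and 3 of 4 for rpl-34 and rpl-24.1, and omission of wild-type replicate 1 ended all 4 of them (adjusted p of 0.0504 to 0.368). All 15 genes called had both meg-3/4 libraries below both wild-type libraries, which the call itself makes likely. The same held for members not called, such as rps-2 (log2 −0.17) and rps-3 (log2 −0.16). Called members had a wild-type median of 77.9 normalized counts (14.2 to 149.7), while the 62 members not called had a wild-type median of 34.0 (6.11 to 154.3), so a fall was tested with more reads in the members called. Members on the positive side included rpl-37, at 16.1 in meg-3/4 and 9.59 in wild type (log2 0.53, limma adjusted p = 0.239), and rps-7, at 46.4 in meg-3/4 and 34.3 in wild type (log2 0.39, limma adjusted p = 0.162), both group means and neither called.

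Calls among flanking genes were counted as well. Of 28 tested genes that flank the 15 lower members, 4 were lower (14.3%) and 2 higher in meg-3/4, and of 118 that flank the other members 14 were lower (11.9%), beside 17.6% of all features.

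Members that share a protein number are listed apart, because the sources used here do not give how reads that match more than 1 gene were counted. The gene rpl-11.1 (V:3585312-3586064), whose protein binds a small rRNA of the large subunit together with RPL-5, had 79.6 and 100.2 normalized counts in meg-3/4, against 151.1 and 148.3 in wild type (log2 −0.71, SE 0.154, limma adjusted p = 0.00156). Its paralog rpl-11.2 (X:2241738-2242618) had 11.1 and 7.86 in meg-3/4, against 27.2 and 11.7 in wild type, and was not called (log2 −0.69, SE 0.575, limma adjusted p = 0.421). At rpl-11.2 the libraries of a group differed widely, and replicates 1 and 2 had 33.4 and 5.53 at F3, 28.3 and 9.98 at F4, 24.5 and 7.17 at F5, 38.5 and 11.7 at F6, and 32.3 and 13.7 at F7. In each of those 5 groups replicate 1 was higher, and from F10 on both libraries had 22.3 to 40.6.

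The pair rpl-24.1 (I:4585115-4586176) and rpl-24.2 (I:9669415-9670098) also stood at different levels. The gene rpl-24.1, whose protein forms a bridge between the subunits, had 14.4 and 17.7 in meg-3/4, against 37.6 and 22.8 in wild type (log2 −0.71, limma adjusted p = 0.0317). The gene rpl-24.2 had 101.8 and 103.1 in meg-3/4, against 103.0 and 81.7 in wild type (log2 0.15, limma adjusted p = 0.542). Neither rpl-41.1 (I:4789190-4789592) nor rpl-41.2 was called, with means of 35.4 and 153.7 in meg-3/4, against 27.3 and 154.3 in wild type. At rpl-25.2 (I:8329062-8329647) the mean was 27.1 in meg-3/4, against 48.2 in wild type (log2 −0.73, limma adjusted p = 0.174).

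Exons of 9 members overlap an exon of a gene on the other strand, whose own transcripts could enter an antisense count. These were rpl-14, rpl-22, rpl-32, rpl-7A, rps-18, rpl-39, rpl-28, rps-16 and rpl-2, with 3 to 67 shared bases, and none of them was called in meg-3/4 against wild type, although rpl-39 was lower in the descendants, at F7 and F10 too, rpl-32 was lower at F7, rpl-22 was lower at F10, and rpl-7A was higher in the triple mutants. The longest overlap was 67 bases between rpl-7A and the non-coding Y24D9A.11, which is listed at 0 in all libraries.

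The triple mutants were set against meg-3/4 and against wild type. Against meg-3/4, 9 members were higher and 0 lower in the triple mutants, with 10.6% of all features called higher and 8.63% lower, so 11.7% of members called higher is near the background. By limma, edgeR and DESeq2 0 members were lower (1 at an unadjusted p under 0.05). The 9 were 5 large subunit genes (rpl-7A, rpl-12, rpl-20, rpl-1, rpl-16) and 4 small subunit genes (rps-4, rps-22, rps-21, rps-14). The median log2 change was 0.12 over the members, 0.10 for the large and 0.14 for the small subunit, beside −0.01 over all features. Equal library totals gave 15 higher and 0 lower, and quantile normalization 5 higher and 1 lower. With 1 of the 4 libraries left out, whichever it was, 3 or 4 members were called. The calls at rpl-16, rpl-7A and rps-14 were lost in 4, 3 and 2 of these 4 omissions, with meg-3/4 replicate 2 among them each time (adjusted p of 0.0535 to 0.0847 without it).

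The strongest of these was rps-4, with 112.6 and 109.6 normalized counts in the triple mutants, against 32.1 and 42.2 in meg-3/4 (log2 1.47, SE 0.276, limma adjusted p = 0.000553). At rps-22 there were 100.9 and 91.4 in the triple mutants, against 42.0 and 47.1 in meg-3/4 (log2 1.03, SE 0.198, limma adjusted p = 0.000702). Both remained called under every alternative tried for this comparison, at adjusted p of 0.0141 at most. At rps-21 the log2 change was 1.45 (SE 0.366, limma adjusted p = 0.00731), and the call was lost without meg-3/4 replicate 1 (adjusted p = 0.0507) or triple mutant replicate 2 (0.0875).

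For the large subunit, rpl-20 had 60.3 and 50.5 in the triple mutants, against 21.0 and 27.5 in meg-3/4 (log2 1.05, SE 0.332, limma adjusted p = 0.0310). The gene rpl-1 had 72.0 and 62.3 in the triple mutants, against 31.0 and 39.3 in meg-3/4 (log2 0.85, SE 0.274, limma adjusted p = 0.0342). The gene rpl-12 (WBGene00004424, IV:13239587-13240651), whose protein forms the base of the factor-binding stalk, had 51.3 and 63.1 in the triple mutants, against 29.9 and 31.4 in meg-3/4 (log2 0.80, SE 0.249, limma adjusted p = 0.0290). None of these values overlapped between the groups, but leaving out any 1 of the 4 libraries ended each of these 3 calls, at adjusted p of 0.0557 to 0.219, and so did quantile normalization or the absence of a filter (0.0501 to 0.0833).

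Against wild type, 0 members were lower and 1 was higher in the triple mutants, whereas 12.4% of all features were called lower and 5.83% higher. At an unadjusted p under 0.05, 4 of 77 members were lower, beside 1581 of 8869 features. Both edgeR and DESeq2 called 0 members lower, beside 1289 and 1114 features. Most members still lay slightly under wild type, with a median log2 change of −0.17 and 57 of 77 below 0, close to the −0.21 and 59 of meg-3/4, beside −0.02 and 4619 of 8869 over all features. The 1 higher member was rpl-7A (WBGene00004419, IV:4389143-4390590, minus strand), with 147.7 and 158.5 normalized counts in the triple mutants, 107.3 and 104.1 in meg-3/4, and 116.3 and 91.7 in wild type. The triple mutants were above all of these (log2 0.54 against wild type, SE 0.144, limma adjusted p = 0.00970). That call did not survive the omission of wild-type replicate 2 (adjusted p = 0.190) or of triple mutant replicate 2 (0.0890), or equal library totals (0.0792). The comparisons of meg-3/4 and of the triple mutants with wild type share the wild-type libraries.

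**Figure D4:**
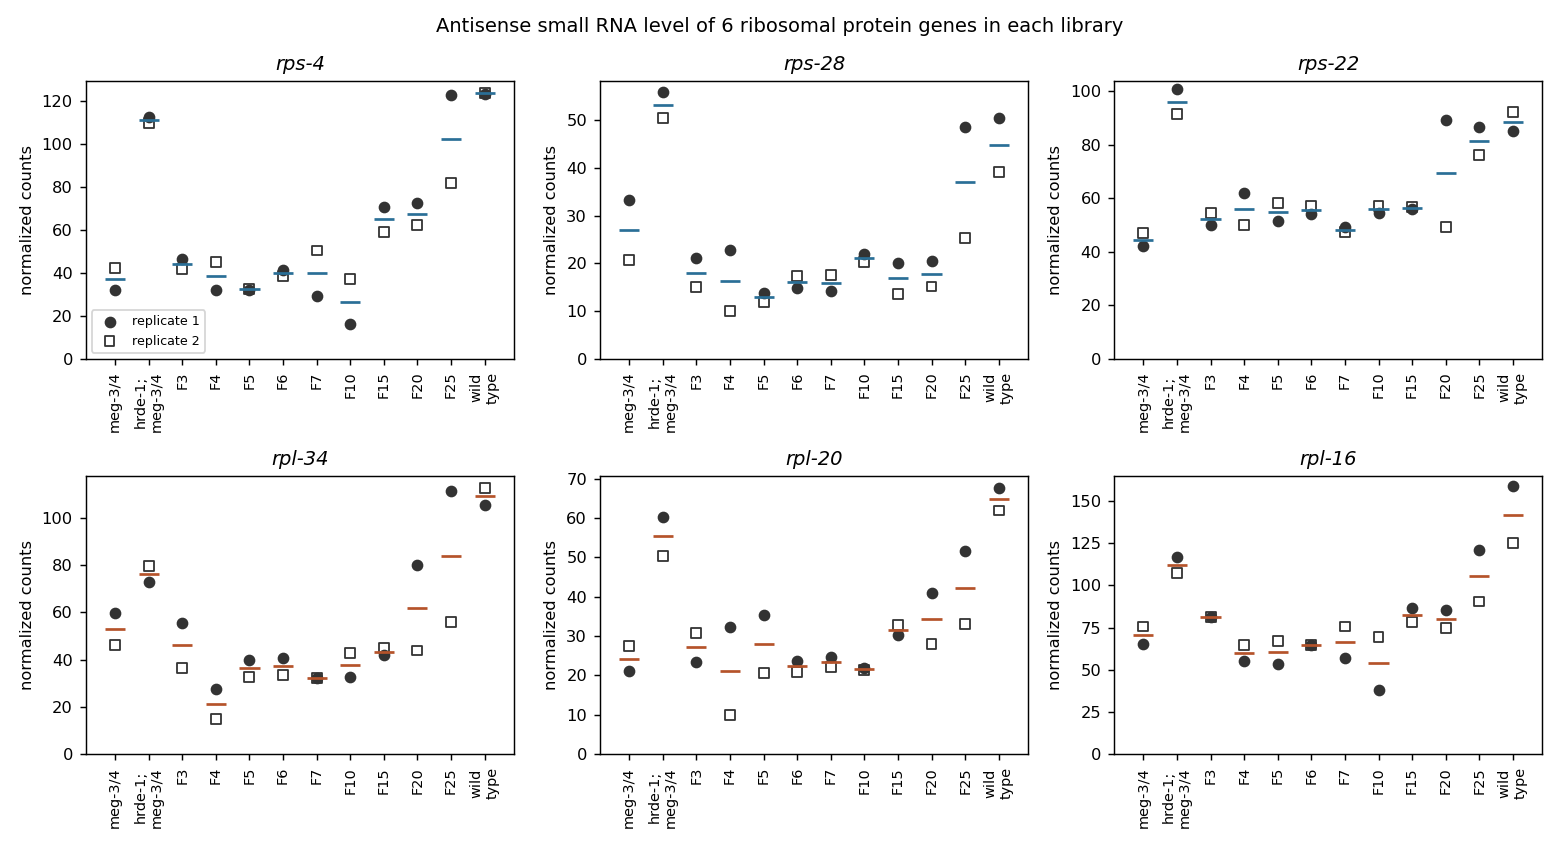
Normalized counts of 3 small subunit genes (top: rps-4, rps-28, rps-22) and 3 large subunit genes (bottom: rpl-34, rpl-20, rpl-16) in each library. Points are replicates and lines are group means. The genes were chosen as the called members that rose most steeply with generation, so the rise shown follows from the choice. At rps-4 both meg-3/4 libraries (32.1 and 42.2) and the F3 to F10 libraries lie far below wild type (123.3 and 123.8), and the triple mutants and F25 replicate 1 lie near it.

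After the outcross the descendants were of wild-type genotype again, and they were set against wild type to find small RNA levels that had stayed changed. Over all 9 generations together, 14 of 77 members were lower than wild type and 0 higher (0 at an unadjusted p under 0.05, and 0 by edgeR and DESeq2), beside 15.2% of all features lower and 6.28% higher. The 18.2% of members lower is again near the background. They were 8 of 46 large and 6 of 31 small subunit genes, and the median log2 change was −0.18 and −0.20 in these subunits, beside −0.01 over all features. Without wild-type replicate 1 the count was 4 and without replicate 2 it was 6, and leaving out any 1 descendant library gave 14 to 18.

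The widest gap was at rps-4, which had 16.4 at the lowest, 43.4 at the median and 122.9 at the highest over 18 descendant libraries, against 123.3 and 123.8 in wild type (log2 −1.32, SE 0.206, limma adjusted p = 0.000114). All descendant libraries were below wild type, although F25 replicate 1 only just. At rpl-34 the lowest, median and highest were 15.0, 40.2 and 111.5, against 105.3 and 112.7 in wild type (log2 −1.31, SE 0.227, limma adjusted p = 0.000327). Only F25 replicate 1 reached into the wild-type range. The lowest values were 3 reads in F10 replicate 1 at rps-4 and 3 reads in F4 replicate 2 at rpl-34, both shallow libraries.

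At rpl-16 the descendants had 38.3 at the lowest, 72.1 at the median and 120.8 at the highest, against 158.6 and 125.0 in wild type (log2 −0.94, SE 0.162, limma adjusted p = 0.000297), with no overlap. The calls at rps-4, rpl-34 and rpl-16 remained under each of the 28 alternatives tried. At rpl-20 the lowest, median and highest were 9.98, 26.3 and 51.6, against 67.7 and 61.9 in wild type (log2 −1.13, SE 0.247, limma adjusted p = 0.00250), also with no overlap. At rps-28 (WBGene00004497, IV:1659691-1659997), a small subunit gene that was not called in meg-3/4, they were 9.98, 17.5 and 48.5, against 50.4 and 39.1 in wild type (log2 −1.10, SE 0.237, limma adjusted p = 0.00234), and F25 replicate 1 overlapped wild type. The calls at rpl-20 and rps-28 were lost without wild-type replicate 1, at adjusted p of 0.0657 and 0.0933. Their lowest values were 2 reads each in F4 replicate 2, and that at rpl-16 was 7 reads in F10 replicate 1.

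At rps-21 the descendants had 0 at the lowest, 8.79 at the median and 27.9 at the highest, against 24.3 and 20.4 in wild type (log2 −0.97, SE 0.273, limma adjusted p = 0.0143). The 0 was F10 replicate 1, where no read allows up to 16.4. Omission of wild-type replicate 1 (adjusted p = 0.192) or 2 (0.1004) ended this call, as did a pseudocount of 1 (0.0706). The other members called were rps-14, rps-22, rps-11, rpl-11.1, rpl-1, rpl-19, rpl-24.1 and rpl-39, with log2 changes of −0.49 to −0.85. Each of these 8 calls was lost without wild-type replicate 1, wild-type replicate 2 or either of them, at adjusted p of 0.0598 to 0.511.

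Against meg-3/4, 1 member was higher and 0 lower in the descendants (0 lower at an unadjusted p under 0.05, and 0 by edgeR and DESeq2), beside 11.3% of all features higher and 6.47% lower. The gene was rpl-26 (WBGene00004440, II:8602785-8603581), whose protein lies by the exit of the peptide tunnel. It had 10.9 at the lowest and 36.7 at the highest over the descendants, with a mean of 26.5 ± 6.69, against 14.4 and 16.7 in meg-3/4 (SD, n = 18; log2 0.58, SE 0.179, limma adjusted p = 0.0279). F10 replicate 1, at 10.9, and F10 replicate 2, at 16.7, lay at or below the higher meg-3/4 library. The call was lost without either meg-3/4 library (adjusted p = 0.289 and 0.106), with quantile normalization (0.0940) and with DESeq2 (0.105).

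By single generation, the number of members lower than wild type was 8 at F3, 14 at F4, 12 at F5, 11 at F6, 13 at F7, 17 at F10, 5 at F15, 0 at F20 and 0 at F25. Of all features, 13.5%, 15.2%, 13.6%, 12.4%, 12.6%, 14.8%, 5.06%, 1.42% and 0.417% were called lower at those generations. Both these shares and the members' counts of adjusted calls were lower from F15 on than before. The median log2 change over members was −0.09 at F3, −0.15 at F4, −0.18 at F5, −0.18 at F6 and −0.24 at F7. It was −0.36 at F10, −0.21 at F15, −0.26 at F20 and −0.12 at F25, beside −0.04 to 0.01 over all features. At F15 and F20 the members' median was thus no smaller a fall than at F3 to F6, though fewer were called. Members called higher were rpl-24.2 at F5 (141.8 and 126.7, against 103.0 and 81.7 in wild type) and rps-2 at F10 (207.8 and 186.2, against 153.4 and 141.3 in wild type), beside 5.71% and 6.44% of all features. Each of these 2 calls was lost in 3 of 4 omissions of 1 library, wild-type replicate 2 among them (adjusted p = 0.275 and 0.196), and with equal library totals (0.154 and 0.643). Elsewhere limma called 0 higher, beside 4.1% of all features at F3, 6.43% at F4, 3.99% at F6, 4.54% at F7, 2.69% at F15, 0.981% at F20 and 0.631% at F25. These comparisons all share the same 2 wild-type libraries, and each used 2 libraries per side.

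The members lower were 4 large and 4 small subunit genes at F3, 8 and 6 at F4, 6 and 6 at F5, 6 and 5 at F6, 8 and 5 at F7, 11 and 6 at F10, and 3 and 2 at F15. At an unadjusted p under 0.05, 13, 19, 20, 17, 21 and 26 of 77 members were lower at F3 to F7 and F10. Beside them were 1704, 1888, 1727, 1665, 1673 and 1927 of 8869 features. At F15 and F20, 21 and 18 members were lower at that p, beside 1156 and 958 features. At F20, edgeR and DESeq2 each called 3 members lower, beside 317 and 205 features. At F25, 0 members were lower and 1 higher at an unadjusted p under 0.05, beside 436 and 404 features. There edgeR and DESeq2 each called 0 members. At F10 the count was 5 without F10 replicate 1, the shallowest library, 26 without F10 replicate 2, and 7 without either wild-type library. At F4 it was 7 without F4 replicate 2, the other shallow library, and 6 and 8 without wild-type replicates 1 and 2. At F3, F6, F7 and F15 leaving out any of the 4 libraries lowered the count by more than 1.5 times, to between 2 and 4, 4 and 7, 5 and 7, and 0 and 1. At F5 it was 6 without either wild-type library, 5 without F5 replicate 2 and 9 without F5 replicate 1. With quantile normalization, F3 had 3 lower and 3 higher, and F4 had 9 lower and 2 higher.

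**Figure D5:**
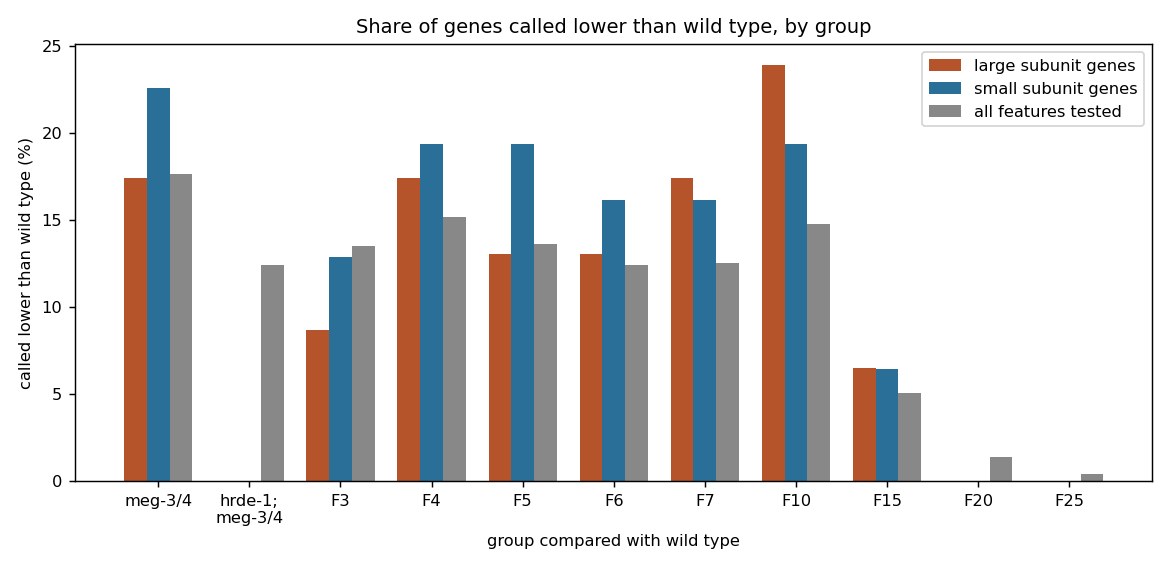
Bars give the percentage of 46 large subunit genes, 31 small subunit genes and all 8869 features called lower than wild type by limma in each group. From F15 on all 3 shares are at 6.52% or less, and in the triple mutants the bars of both subunits are at 0 beside 12.4% of all features.

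The levels of rps-4 are given by generation as 1 example. It was picked as the member with the steepest slope and does not stand for the members as a set. Their median slope was −0.0013 log2 per generation. At rps-4 the descendants had 46.4 and 41.8 normalized counts at F3, 32.2 and 44.9 at F4, 32.2 and 32.7 at F5, 41.2 and 38.8 at F6, and 29.4 and 50.4 at F7. They had 16.4 and 37.0 at F10, 70.5 and 59.1 at F15, 72.6 and 62.2 at F20, and 122.9 and 82.0 at F25, against 123.3 and 123.8 in wild type. The low plateau from F3 to F10 did not overlap the libraries of F15, F20 and F25.

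The log2 changes of rps-4 against wild type were −1.39 at F3, −1.58 at F4, −1.78 at F5, −1.51 at F6, −1.56 at F7 and −2.10 at F10, all called. They were −0.88 at F15 (limma adjusted p = 0.0560), −0.83 at F20 (0.117) and −0.29 at F25 (0.813), none called. At rpl-34 they ran from −1.19 to −2.16 between F3 and F10 and were −1.24 at F15 (limma adjusted p = 0.0169), −0.82 at F20 (0.166) and −0.44 at F25 (0.729). At rps-28 they were −0.92 to −1.47 between F3 and F10, −1.19 at F15 (limma adjusted p = 0.0253), −1.12 at F20 (0.0643) and −0.29 at F25 (0.839). The largest falls of rps-4, at F10, and of rpl-34, at F4, each include a shallow library with 3 reads at the gene. The rps-4 calls held under all alternatives tried, while omission of any 1 of 4 libraries ended the calls at F15 of rpl-34 and rps-28 and at F10 of rps-28 (adjusted p of 0.0544 to 0.244). A miss at F15 to F25 does not show that a level equalled wild type, since each test rests on 2 libraries per side.

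A slope over the 18 descendant libraries, which uses no wild-type library, was positive and called for 7 members and negative for 1. Of all features 13.8% rose and 7.51% fell with generation, so the 9.09% and 1.30% of members are below the background. The 7 were 3 small subunit genes (rps-4, rps-22, rps-28) and 4 large subunit genes (rpl-34, rpl-20, rpl-16, rpl-11.1). The median slope over members was −0.0013 log2 per generation. With equal library totals 2 rose and 1 fell, and with quantile normalization 5 rose and 4 fell.

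The steepest rise was at rps-4, by 0.0589 log2 per generation (SE 0.0120, limma adjusted p = 0.00101), a fitted 2.46-fold between F3 and F25. At rpl-34 the slope was 0.0514 (SE 0.0119, limma adjusted p = 0.00304), a fitted 2.19-fold. Both remained called under every alternative. At rpl-20 it was 0.0330 (limma adjusted p = 0.0319), at rps-28 0.0318 (0.0414), at rpl-16 0.0262 (0.0317), at rps-22 0.0230 (0.0126) and at rpl-11.1 0.0176 (0.0107). Without F25 replicate 1 only 2 members were called, and the adjusted p was 0.180 for rpl-20, 0.356 for rps-28, 0.205 for rpl-16, 0.0929 for rps-22 and 0.0517 for rpl-11.1. Over 18 omissions of 1 library the call was lost in 11 for rps-28, 5 for rpl-16, 2 for rpl-20 and 1 each for rps-22 and rpl-11.1, and over 8 other alternatives in 4, 2, 3, 1 and 1. That library was the higher of the F25 pair at each of these genes, with 51.6 against 33.0 for rpl-20 and 48.5 against 25.4 for rps-28.

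The member that fell with generation was rpl-6 (WBGene00004417, III:7208447-7209789), at −0.0155 log2 per generation (SE 0.00545, limma adjusted p = 0.0454). It had 60.0 and 69.5 normalized counts at F3, 81.8 and 59.9 at F4, and 51.6 and 51.6 at F25. Its call was lost in 14 of the 26 alternatives, 11 of them the omission of 1 library.

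Calls of members were matched between comparisons that contrast different libraries. Of the 15 members lower in meg-3/4 than in wild type, 6 (40.0%) rose with generation in the descendants, and these are 85.7% of the 7 that rose. The 6 were rps-4, rps-22, rpl-34, rpl-20, rpl-16 and rpl-11.1. Over all features, 57.6% of those lower in meg-3/4 rose with generation, and they made up 73.6% of those that rose. Of the 14 members lower in the descendants than in wild type, 7 (50.0%) were higher in the triple mutants than in meg-3/4, which is 77.8% of the 9 higher there. Over all features these shares were 39.8% and 57.1%. These are counts of shared calls and were not tested.

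Other genes of translation were counted for comparison, in meg-3/4 against wild type. Of 6 stalk, fusion and associated proteins of the ribosome, 3 were lower and 0 higher (median log2 change −0.47), with ubl-1, a ubiquitin-like fusion to a small subunit protein, at a mean of 11.9 normalized counts in meg-3/4 and 29.4 in wild type (log2 −1.04). Of 6 elongation factors, 1 was lower and 1 higher (median 0.11), the higher being eef-1A.2 at 22.3 in meg-3/4 and 6.40 in wild type (log2 1.26). Of 33 initiation factors, 3 were lower and 4 higher (median 0.10), and ife-3, a cap-binding protein, had 354.3 in meg-3/4 and 140.9 in wild type (log2 1.30).

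Of 31 aminoacyl-tRNA synthetases, 5 were lower and 0 higher (median −0.21), with aars-1 at 34.2 in meg-3/4 and 75.6 in wild type (log2 −1.04). Of 21 ribosome biogenesis genes, 2 were lower and 0 higher (median −0.01), rbd-1 by the larger amount (log2 −0.47). Of 68 mitochondrial ribosomal protein genes, 1 was lower and 0 higher, mrpl-45 (log2 −0.57), and their median was 0.04, beside −0.21 for the cytosolic genes. All 4 ribosomal RNA features tested were higher (median 1.47), up to a log2 change of 1.82 at a locus named rrn-1.1.

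In the triple mutants against meg-3/4, 1 stalk or fusion gene, 1 elongation factor, 3 initiation factors, 3 synthetases, 2 biogenesis genes and 1 mitochondrial ribosomal protein gene were higher, and 0, 0, 2, 1, 0 and 1 were lower. In the descendants against wild type, 2 stalk or fusion genes, 1 elongation factor, 2 initiation factors, 5 synthetases, 2 biogenesis genes and 5 mitochondrial ribosomal protein genes were lower, and 0, 1, 1, 1, 1 and 0 were higher. The 4 ribosomal RNA features were all lower in the triple mutants than in meg-3/4, and 3 of 4 were lower in the descendants than in wild type.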

How the data were processed

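The authors deposited signal values for each gene in each library, which are normalized counts. Per the submitters' processing notes the tools were cutadapt, Bowtie, featureCounts and DESeq2. The sources used here do not give versions, genome build, annotation, strand setting or the handling of shared reads. All 386038 deposited values above 0 were whole multiples of 1 read within 0.01, so reads were recovered. Names and positions come from Ensembl release 115 (WBcel235).

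The 77 members and the gene lists were chosen with earlier results of these data known. Values were tested as log2(normalized count + 5) with limma 3.58.1 (R 4.3.3, intensity trend) on features with 10 or more in at least 2 of 24 libraries, in 1 fit of 12 groups. The slope was fitted over 18 descendant libraries. Every p was two-sided and adjusted over 8869 features. Only the members' results are printed. Named genes were the called members with the largest changes, up to 6 per direction and comparison, the highest and lowest per kilobase, paralogs and members with exon overlaps on the other strand. From each other list the called gene with the largest change in meg-3/4 was named.

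Alternatives were a pseudocount of 1, no filter, equal library totals, quantile normalization, a replicate block, edgeR 4.0.16 and DESeq2 1.42.0 on recovered reads, and omission of libraries. On recovered reads edgeR called 1790 features lower and 1069 higher in meg-3/4 against wild type, beside 1564 and 734 by limma. Scripts were tested on simulated data. Summaries and figures used Python 3.11.15, pandas 2.3.3 and matplotlib 3.10.9.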

Additional observations from a re-analysis of the deposited data

How the results depend on the processing

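The 130 calls of members, over all comparisons, were followed through 1837 alternative results, of which 0 reversed direction and 456 lost the call. Counts of members called moved as follows. Equal library totals gave 28 lower in meg-3/4 (15 as reported), 15 higher (9) in the triple mutants against meg-3/4, 0 higher (1) in the triple mutants against wild type, 5 higher (1) in the descendants against meg-3/4, 26 lower (17) and 0 higher (1) at F10, 16 lower (5) at F15, 5 lower (0) at F20, 0 higher (1) at F5 and 2 rising (7) over the generations. Quantile normalization gave 9 lower and 1 higher (15 and 0) in meg-3/4, 5 higher and 1 lower (9 and 0) in the triple mutants against meg-3/4, 0 higher (1) in the descendants against meg-3/4, 3 lower and 3 higher (8 and 0) at F3, 9 and 2 (14 and 0) at F4, 7 lower (12) at F5, 7 (11) at F6, 8 (13) at F7, 2 higher (1) at F10, 2 lower (5) at F15 and 4 falling (1). It put the large subunit's share of the sum at 63.4% in meg-3/4 and 63.6% in wild type, against 63.7% and 63.1% as reported. Without the filter there were 4 higher (9) in the triple mutants against meg-3/4, and 4 lower (8) at F3, 7 (11) at F6, 8 (13) at F7, 1 (5) at F15, 0 higher (1) at F5 and F10, and 0 falling (1). A pseudocount of 1 gave 2 lower (5) at F15. By edgeR there were 11 lower (17) at F10, 12 (5) at F15, 3 (0) at F20 and 1 higher (0) at F3 and at F4. By DESeq2 there were 6 lower (14) at F4, 5 (17) and 0 higher (1) at F10, 3 lower (0) at F20, 0 higher (1) in the descendants against meg-3/4 and 0 falling (1). Without F4 replicate 2 and F10 replicate 1 together there were 8 lower and 1 higher (14 and 0) at F4, 9 and 0 (17 and 1) at F10, and 4 higher (1) in the descendants against meg-3/4. The causes were not tested.

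Omission of 1 library gave 7 to 12 lower in meg-3/4, 0 to 1 higher in the triple mutants against wild type, 3 to 4 higher against meg-3/4, 4 to 18 lower in the descendants against wild type and 0 to 2 higher against meg-3/4. It gave 2 to 4 lower at F3, 6 to 19 lower and 0 to 1 higher at F4, 5 to 9 and 0 to 1 at F5, 4 to 7 lower at F6, 5 to 7 at F7, 5 to 26 lower and 0 to 2 higher at F10, 0 to 1 lower at F15, and 2 to 10 rising and 0 to 1 falling. The large subunit's share ran 63.5% to 63.9% in meg-3/4, 62.0% to 62.5% in the triple mutants, 63.6% to 63.8% in the descendants and 62.9% to 63.4% in wild type. Where 1 library remained in a group, it was assumed to vary like the other groups.

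The labels do not say whether replicate numbers pair the libraries, and the main fits did not pair them. Over 66 pairs of groups the correlation of replicate differences ran from −0.0759 to 0.469, with 30 over 0.1. Among descendant groups 22 of 36 pairs were over 0.1 (median 0.137), and same-numbered libraries of F3, F5, F6 and F7 deviated together (0.225 to 0.469). The 18 descendant libraries may therefore not be independent, as the slope takes them to be. With the replicate block there were 16 lower in meg-3/4, 10 higher in the triple mutants against meg-3/4, 14 lower in the descendants, 1 lower (0) at F20, and 8 rising and 0 falling (7 and 1). The block changed no other count by over 1.5 times.

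Depth limits F10 replicate 1 and F4 replicate 2 most, where 22 and 14 members had fewer than 3 reads, and low genes such as rps-17 and rps-21 in every comparison. Groups of 2 limit every call, and differences that missed the threshold may exist.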
